A study of Oryza sativa with 16 samples.

Results

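A set of 432 genomic regions was examined that carried ChIP-seq summits of OsHOX24 in rice seedlings kept in water but in no library of desiccated seedlings. They were chosen from the summit lists themselves: the 8 lists were pooled over chromosomes 1 to 12, summits up to 200 bp apart were merged, and a region was taken where at least 3 of the 4 control lists and none of the 4 desiccation lists had a summit. The 432 are among 16253 regions in all, or 2.66%, and are called control-only regions here. The calls chose the regions, so their absence in desiccation and presence in control, and the summit values from which the calls were made, are descriptions and were not tested.

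The 4 groups were H49 seedlings under desiccation, WT seedlings under desiccation, H49 control seedlings and WT control seedlings, with 2 ChIP libraries each. All were rice (Oryza sativa) seedlings 3 weeks old, grown hydroponically at 28 °C. Desiccated seedlings lay between folds of tissue paper or on dry filter paper, and control seedlings stood in water, for 3 h. H49 is a transgenic line that over-expresses OsHOX24 and is the only such line in the series; the labels do not give the promoter of its transgene. WT seedlings carry the endogenous gene, so no group lacks OsHOX24 by design. The amount of protein that the antibody against OsHOX24 could bind is not known in any of the 4 groups. The 8 input samples were not analysed here. The chromatin came from seedlings in bulk, so binding in fewer cells and weaker binding per cell cannot be told apart.

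OsHOX24 belongs to subfamily I of the homeodomain-leucine zipper proteins, a family of transcription factors found in plants. These proteins pair through the leucine zipper and bind short AT-rich, nearly palindromic sites through the homeodomain. Subfamily I members are known for their part in responses to water deficit and abscisic acid, and in rice the OsHOX24 transcript is known to rise when seedlings lose water. A ChIP-seq summit is the position inside a peak where enrichment was highest. A genome sequence and gene positions of the build used for mapping were not used here, so the regions are given by position, without their sequences or genes.

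The lists held 2172 to 2690 summits on the 12 chromosomes in the desiccation libraries and 3166 to 9345 in the control libraries. The longest was that of WT control replicate 1. The numbers of reads behind the lists are unknown. Each summit has a value, the −log10 of the p-value given by the authors' peak caller. It grows with the number of reads, so it was turned into a percentile within its own list, where 0 is the weakest and 100 the strongest summit. WT desiccation replicate 2 stands apart, with a median value of 20.1, while the other desiccation lists had 6.10 to 7.71 and the control lists 6.37 to 7.81. The count without it is given with the results.

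Of the 1703 regions with a summit in at least 3 control lists, 432 (25.4%) had none in any desiccation list, 356 had one in 1 desiccation list, 323 in 2, 279 in 3 and 313 in all 4. The share depended on how many control lists held the region: 38.0% of the 918 regions in exactly 3 control lists were control-only, against 10.6% of the 785 regions in all 4. Accordingly 349 of the 432 were in exactly 3 control lists and 83 (19.2%) in all 4, while 55.2% of the other 1271 recurrent control regions were in all 4. The opposite rule, at least 3 desiccation lists and no control list, found 68 regions (0.418% of all regions), which is 7.58% of the 897 regions recurrent in desiccation.

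List length moves with this contrast, since all 4 control lists are longer than all 4 desiccation lists. When each list was cut to its 2172 strongest summits, the length of the shortest, the rule found 121 control-only regions and 109 of the opposite kind, and 110 of the 432 regions (25.5%) overlapped one of the 121. A missing summit is therefore a call that was not made in that list, and loss of binding was not measured. The number also rests on each control library. When 1 was left out, the remaining 3 control lists all had to hold a summit, and the rule found 149 regions without H49 control replicate 1, 178 without H49 control replicate 2, 111 without WT control replicate 1 and 231 without WT control replicate 2. The opposite rule, which still asked for 3 of 4 desiccation lists, found 75, 77, 97 and 141 regions in the same order. Without WT desiccation replicate 2 the number was 472. Leaving out a desiccation list can only add regions under this rule. The number was 583 without WT desiccation replicate 1, 528 without H49 desiccation replicate 1 and 486 without H49 desiccation replicate 2.

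The control-only regions ranked lower than the other recurrent control regions in each control list. Their median percentile was 50.6 in H49 control replicate 1, 44.9 in H49 control replicate 2, 72.2 in WT control replicate 1 and 40.4 in WT control replicate 2. The other recurrent control regions had medians of 79.6, 76.3, 90.1 and 72.8 in the same order of lists. Averaged over the 4 control lists, the medians were 52.0 ± 14.1 for control-only regions and 79.7 ± 7.48 for the others (SD, n = 4 lists).

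**Figure D1:**
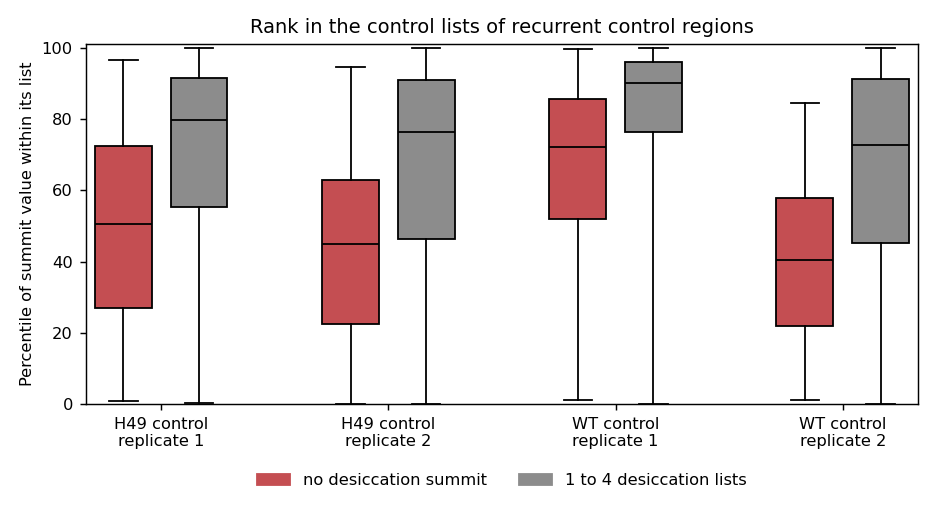
Percentile of the summit value within its own list (y axis, 0 to 100) in each control library, for the 432 regions without any desiccation summit (red) and the 1271 other regions in at least 3 control lists (grey). Boxes span the quartiles with the median as a line, whiskers reach the lowest and highest region. The red medians, 40.4 to 72.2, lie below the grey ones, 72.8 to 90.1, in every list, and the ranges overlap.

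Above the 90th percentile of a list stood 14 of 361 control-only regions (3.88%) in H49 control replicate 1, 2 of 334 (0.599%) in H49 control replicate 2, 52 of 402 (12.9%) in WT control replicate 1 and 0 of 282 in WT control replicate 2. Among the other recurrent control regions the shares were 28.6%, 27.4%, 50.5% and 28.2% in the same lists. In values, the control-only regions spanned −log10 p of 3.16 to 32.3 in H49 control replicate 1, 3.06 to 86.8 in H49 control replicate 2, 3.28 to 83.0 in WT control replicate 1 and 3.34 to 19.6 in WT control replicate 2. The highest summits of these 4 lists reached 105, 413, 335 and 291. The highest control-only value was far below the top of each list, although in WT control replicate 1 it still stood at the 99.5th percentile.

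The share of control-only regions was lower where the summits ranked higher in control. The 1703 recurrent control regions were ordered by their mean percentile over the control lists that held them and split into 10 parts of equal size. In the weakest part 95 of 171 regions (55.6%) had no desiccation summit and none was in all 4 desiccation lists. In part 5 the shares were 26.9% and 9.36%, and in part 8 they were 11.2% and 20%. In the strongest 2 parts none of 341 regions was control-only, and 51.2% and 81.3% were in all 4 desiccation lists. The highest control-only region had a mean percentile of 88.3, and 341 of the other 1271 (26.8%) lay above it. With lists of equal length, the strongest 20% again held 0 control-only regions, of 187, and the weakest 20% held 55 of 187 (29.4%). Merging over 500 bp put 4 control-only regions among the strongest 20% (of 416). Leaving out WT desiccation replicate 1 put 1 there (of 337). Leaving out H49 desiccation replicate 1 or H49 desiccation replicate 2 also put 1 there (of 339 each).

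**Figure D2:**
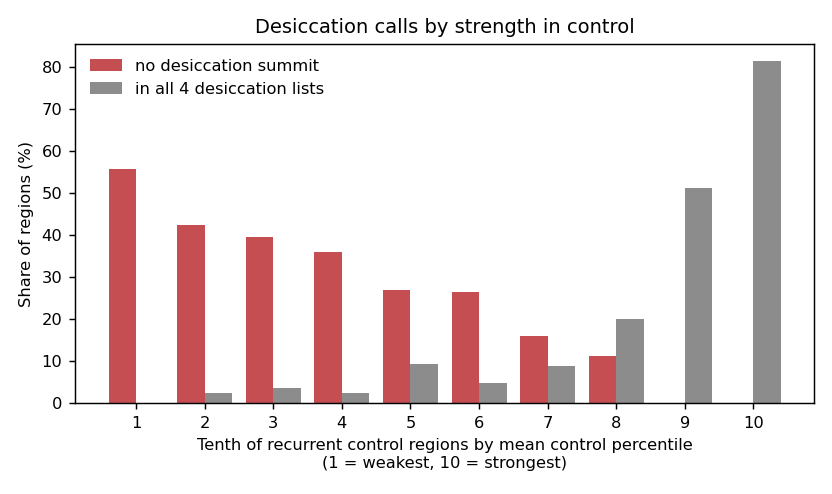
Share (y axis, %) of the 1703 regions in at least 3 control lists that had no desiccation summit (red) or a summit in all 4 desiccation lists (grey), in 10 parts ordered by mean control percentile (x axis, weakest at the left). The red bars run from 55.6% in the weakest part to 0 in the strongest 2, where the grey bars reach 51.2% and 81.3%.

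The regions just outside the rule lay close to those just inside. The 356 recurrent control regions with a summit in exactly 1 desiccation list had median control percentiles of 60.3 and 51.3 in H49 control replicates 1 and 2 and of 78.9 and 45.0 in WT control replicates 1 and 2. Their single desiccation summit was in WT desiccation replicate 1 for 160 regions, in H49 desiccation replicate 1 for 97, in H49 desiccation replicate 2 for 56 and in WT desiccation replicate 2 for 43. In those lists its median percentile was 49.6, 47.0, 31.1 and 18.4. On the other side of the rule, the 1396 regions in 2 control lists and no desiccation list had median control percentiles of 44.1 and 37.9 in the H49 lists and 58.9 and 34.7 in the WT lists. Mean control percentile was higher with more desiccation lists. Its median was 50.5 with none, 56.7 with 1, 66.3 with 2, 81.0 with 3 and 94.8 with all 4.

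Of the 83 control-only regions in all 4 control lists, the one with the highest mean percentile was Chr1:8545754–8546137. Its −log10 p was 17.8 and 23.2 in H49 control replicates 1 and 2 and 24.4 and 10.9 in WT control replicates 1 and 2. These are percentiles of 91.2, 83.9, 94.2 and 72.9, so it was a strong summit in 3 of the 4 lists. The nearest desiccation summits lay 8852 bp away in WT desiccation replicate 1 and 8867 bp away in H49 desiccation replicate 2, in a region without control summits. In the other 2 desiccation lists the nearest summit was more than 100000 bp away.

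Chr4:34981145–34981804 came next, at −log10 p of 28.4 and 15.2 in the H49 control lists and 38.5 and 10.1 in the WT control lists. It was higher in replicate 1 of both genotypes. Its summits spread over 459 bp, and the nearest desiccation summit, 947 bp away in WT desiccation replicate 1, was weak (−log10 p 4.48, percentile 19.1). All 4 desiccation lists had a summit between 947 and 1784 bp from it, so the area was not empty under desiccation.

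Chr7:1503679–1503955 had −log10 p of 10.5 and 16.1 in the H49 control lists and 17.7 and 17.4 in the WT control lists, at percentiles between 79.1 and 90.1. Only H49 desiccation replicate 1 had a summit in its neighbourhood, 10967 bp away, and the other 3 desiccation lists had none closer than 166768 bp. Chr4:21842197–21842434 was uneven, with 7.33 and 71.2 in the H49 control lists and 27.3 and 13.2 in the WT control lists, although its 4 summits lay within 37 bp. WT desiccation replicate 2 had a summit 328 bp from it (−log10 p 8.81), just beyond the merge distance.

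Chr5:5916930–5917217 reached −log10 p of 7.99 and 23.0 in the H49 control lists and 18.5 and 8.29 in the WT control lists, and was the most isolated of the leading 10, with no desiccation summit within 173558 bp. The other members among these 10 were Chr1:28946695–28946994, Chr3:7180829–7181086, Chr3:9847351–9847744, Chr3:5988854–5989141 and Chr3:28329729–28329981, at mean percentiles from 69.6 to 75.7. Chr3:9847351–9847744 stood at percentiles of 91.8 and 75.8 in the H49 control lists and 95.1 in WT control replicate 1, but at 28.0 in WT control replicate 2. Chr3:5988854–5989141 had a summit of H49 desiccation replicate 2 only 404 bp away, and none of the other desiccation lists had one within 44392 bp.

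Among the 349 regions missing from 1 control list, Chr12:6762977–6763218 had the highest mean percentile. Its −log10 p was 86.8 in H49 control replicate 2 and 14.5 and 19.6 in the WT control lists, and H49 control replicate 1 had no summit there. All 4 desiccation lists had their nearest summit 188367 to 188434 bp away, the closest of them in a region that was called in all 8 libraries. Chr11:2391272–2391525 followed, with 32.3 and 10.8 in the H49 control lists and 83.0 in WT control replicate 1. Desiccation summits stood 282 bp away in WT desiccation replicate 1, 388 bp away in WT desiccation replicate 2 and 602 bp away in H49 desiccation replicate 2.

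Chr1:39565358–39565822 was even, with −log10 p of 16.4 in H49 control replicate 1 and 15.2 and 14.4 in the WT control lists. Chr10:19233140–19233434 had 35.2 in H49 control replicate 2 and 14.9 and 13.5 in the WT control lists. Chr3:4173000–4173202 had 25.4 in H49 control replicate 2 and 12.9 and 15.4 in the WT control lists, and its 3 summits agreed within 2 bp. Of these 5 regions, 3 were missing from H49 control replicate 1.

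At the lower end the calls stood close to the threshold of the lists. The lowest mean percentile, 10.7, was that of Chr4:31429529–31429741, with −log10 p of 5.28 and 3.07 in the H49 control lists and 3.28 in WT control replicate 1. Chr5:29070575–29070907 was called in all 4 control lists with 5.28 and 3.69 in the H49 lists and 4.08 and 4.03 in the WT lists. Chr8:4626065–4626455, Chr2:34450849–34451255 and Chr9:10129550–10129977 had mean percentiles of 11.2, 13.9 and 13.98.

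Immediately outside the rule stood regions in all 4 control lists and 1 desiccation list. The highest by mean control percentile was Chr9:4727067–4727368, whose only desiccation summit, in WT desiccation replicate 1, stood at percentile 73.2 of that list (−log10 p 7.98). Its −log10 p was 31.0 and 58.3 in the H49 control lists and 41.3 and 87.5 in the WT control lists. Its mean control percentile of 94.8 was above that of every control-only region. Chr6:5894153–5894374 and Chr12:455721–455983 were kept out by desiccation summits at percentile 83.9 of WT desiccation replicate 2 and 88.0 of H49 desiccation replicate 1. Chr1:4905399–4905652 was kept out by a lower-ranking one, at percentile 20.7 of WT desiccation replicate 2, and Chr3:33790497–33790813 by one at percentile 47.2 of H49 desiccation replicate 2. The desiccation summit lay 1.75 to 12.25 bp from the mean of the control summits in these 5 regions.

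The question of genotype is limited by the rule, which puts each region in at least 1 list of H49 and 1 of WT. Within that limit the genotypes were represented about equally. Both H49 lists and 1 WT list held 180 regions (41.7%), 1 H49 list and both WT lists held 169 (39.1%), and 83 were in all 4. For the other recurrent control regions the shares were 23.7% and 21.1%. Within one treatment 2 lists face 2, where an exact two-sided permutation test cannot go below 0.333, and no test was made.

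Single libraries differed more than genotypes. H49 control replicates 1 and 2 lacked 71 and 98 of the 432 regions, and WT control replicates 1 and 2 lacked 30 and 150. Of the regions in exactly 3 control lists, WT control replicate 2 was the missing one for 43.0% of control-only regions and for 38.5% of the others. H49 control replicate 1 was missing for 20.3% of control-only regions and 27.4% of the others. Where WT control replicate 1 was missing, it had a summit within 1000 bp of 23 of the 30 regions, while the other 3 lists did so for 18 to 24 of the 71 to 150 regions they lacked. The list of WT control replicate 1 is also the longest, with 9345 summits against 3166 to 4236 in the other control lists. The part of list length in this difference was not tested.

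The genotypes' ranks were compared over regions in all 4 control lists, because a region missing from 1 list has a single library for one genotype and percentiles move with the library. In the 83 control-only regions in all 4 lists, the mean percentile in H49 lists minus that in WT lists had a median of −4.88, with quartiles of −19.6 and 7.95, and was above 0 in 33 (39.8%). In the 702 other recurrent control regions in all 4 lists the median was −1.51, with quartiles of −7.26 and 1.47, and it was above 0 in 34.9%. The genotypes were within 10 percentile points of each other in 37 of the 83 and in 494 of the 702. List lengths differ between the libraries, so no difference between genotypes is read from these values. Over the same 83 regions, Spearman correlations of percentiles between pairs of lists ran from 0.03 (H49 control replicates 1 and 2) to 0.46 (H49 control replicate 1 and WT control replicate 1). Over the 702 others they ran from 0.73 to 0.84. The mean percentile of the 83 control-only regions went no higher than 85.5, and the part of this narrower range in their lower correlations was not tested. All these regions share the same 4 libraries.

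**Figure D3:**
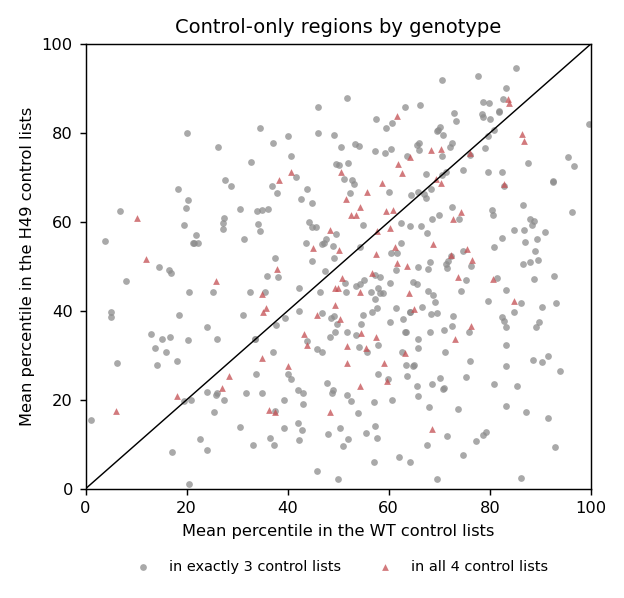
Mean percentile in the H49 control lists (y axis) against mean percentile in the WT control lists (x axis) for the 432 control-only regions, in exactly 3 control lists (grey circles) or all 4 (red triangles). The line marks equal percentiles. Points scatter widely on both sides, with 165 of 432 above the line; a grey circle rests on a single list for one genotype.

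Summits of different libraries agreed less closely in position within control-only regions. Between the H49 control lists the median distance of the highest summits was 84 bp over the 263 control-only regions that both held, against 41 bp in 1003 other recurrent control regions. Between the WT control lists it was 82 bp, against 45 bp. Over all 6 pairs of control lists the medians were 67 to 84 bp in control-only regions and 33.5 to 50 bp in the others. The 356 regions with 1 desiccation list resembled the control-only regions, at 69 to 88.5 bp. Of the 432, 427 had exactly 1 summit per list that held them, and the summits of a region spread over 2 to 603 bp with a median of 132 bp.

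Many of the control-only regions had a desiccation summit nearby, as had regions in fewer control lists. The distance from the mean summit position to the nearest desiccation summit of any list ran from 261 to 353983 bp, with a median of 4909 bp. It was at most 500 bp in 33 regions (7.64%), at most 1000 bp in 78 (18.1%) and at most 10000 bp in 263 (60.9%). The 9675 regions in 1 or 2 control lists and no desiccation list had shares of 9.16%, 19.0% and 57.5% at the same distances. Among them, the 1396 regions in 2 control lists had shares of 9.89%, 22.7% and 61.8%, with a median distance of 5007 bp. The share within 1000 bp was 32.4% without WT control replicate 1, 28.1% with lists of equal length and 8.57% with merging over 500 bp in place of 200 bp. Merging over 500 bp gave 560 regions, and over 100 bp 292.

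By library, the median distance was 19844 bp in H49 desiccation replicate 1, 28090 bp in H49 desiccation replicate 2, 13686 bp in WT desiccation replicate 1 and 52174 bp in WT desiccation replicate 2. The longest of these lists lay nearest and the shortest farthest. Between them the order was the other way, as H49 desiccation replicate 2, with 2359 summits, lay farther than H49 desiccation replicate 1, with 2336. A summit within 1000 bp was present for 35 and 18 of the 432 regions in H49 desiccation replicates 1 and 2, and for 46 and 18 in WT desiccation replicates 1 and 2.

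**Figure D4:**
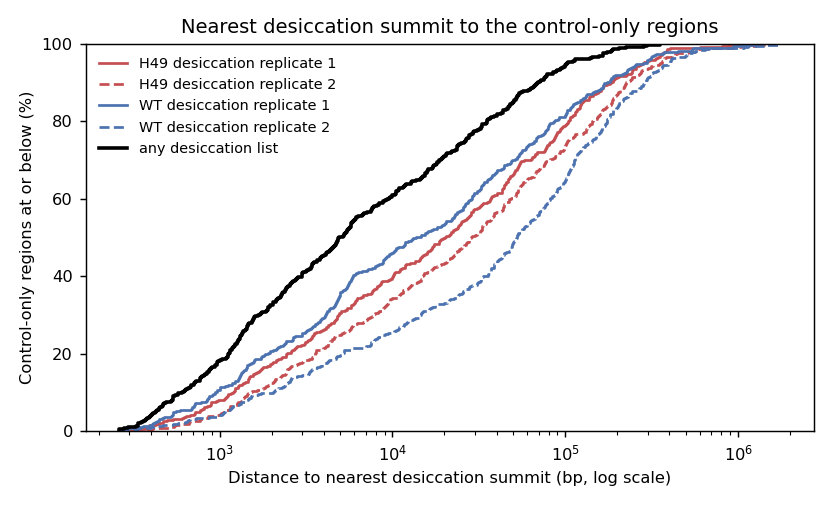
Cumulative share (y axis, %) of the 432 control-only regions with a desiccation summit at or below a given distance (x axis, bp, log scale), for each desiccation library and for the nearest of all 4 (black). The black line reaches 18.1% at 1000 bp and 60.9% at 10000 bp, and WT desiccation replicate 2 lies lowest through most of the range.

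The desiccation summits nearest to control-only regions had a median percentile of 34.7. For 299 of the 432 regions (69.2%) the neighbour was called in a single desiccation list, and of all 6146 regions with a desiccation summit 4003 (65.1%) were. In 152 cases the neighbouring region had no control summit, in 165 it was in 1 or 2 control lists, and in 115 (26.6%) in 3 or 4. Of all 6146 regions with a desiccation summit, 1271 were in 3 or 4 control lists. Those without a control summit numbered 2226 in 1 desiccation list, 294 in 2, 64 in 3 and 4 in all 4. Among the 78 regions with a desiccation summit within 1000 bp, 12 neighbours were recurrent in control and 36 had no control summit. These 78 had a median mean control percentile of 55.4, against 49.3 in the 354 regions without such a summit.

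The closest case was Chr1:22605537–22605775, with −log10 p of 11.04 in H49 control replicate 2 and 61.1 and 9.36 in the WT control lists. A summit of H49 desiccation replicate 1 stood 261 bp away (−log10 p 4.48), and all 4 desiccation lists had one within 1065 bp. Chr1:22140556–22140853 was in all 4 control lists, with 9.09 and 6.77 in the H49 lists and 5.36 and 10.8 in the WT lists. It had 1 weak summit of WT desiccation replicate 2 at 263 bp (−log10 p 4.17), while the other desiccation lists had none within 237351 bp. Chr11:2391272–2391525, described above, was the third closest, followed by Chr3:31475891–31476252 at 292 bp and Chr9:18208905–18209119 at 297 bp, both from a summit of WT desiccation replicate 1.

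The farthest case was Chr7:17184422–17184675, with −log10 p of 5.85 and 5.67 in the H49 control lists and 6.64 in WT control replicate 1, and no desiccation summit within 353983 bp. Chr5:5020953–5021374, in all 4 control lists, had 4.35 and 13.1 in the H49 lists and 8.51 and 8.90 in the WT lists, and no desiccation summit within 296735 bp. Chr3:16708191–16708535, Chr11:21485420–21485804 and Chr4:20938491–20938782 followed, at 223936 to 283971 bp. These isolated regions were of middling or low rank, at mean percentiles of 24.3 to 54.0.

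Chromosome 2 held 81 of the 432 control-only regions (18.8%), and chromosomes 1 and 3 held 78 each (18.1%). Of the 83 in all 4 control lists, chromosome 2 held 13 (15.7%) and chromosomes 1 and 3 held 17 each (20.5%). Chromosome 2 held 10.1% of the other recurrent control regions, 12.9% of all regions and 9.64% of the length of the 12 chromosomes, taken as the highest summit positions. Chromosome 5 held 43 (9.95%), against 5.98% of the other recurrent control regions. Chromosome 12 held 8 (1.85%), against 8.73%, and chromosome 11 held 10 (2.31%), against 2.91%. No test was made, since regions are not replicates.

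Rank moved with chromosome. The 119 recurrent control regions of chromosome 12 had a median mean percentile of 91.6, whereas the other chromosomes had medians of 56.8 to 73.7. Among the 463 recurrent control regions at or below the median of the control-only ones, 46.7% were control-only. Within this lower part the share was 56.2% of 73 regions on chromosome 2, 56.8% of 44 on chromosome 5 and 5 of 9 on chromosome 12. On the other chromosomes it ran from 27.3% of 22 regions on chromosome 8 to 52.4% of 42 on chromosome 4. With lists of equal length chromosome 2 held 13.2% of the control-only regions.

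**Figure D5:**
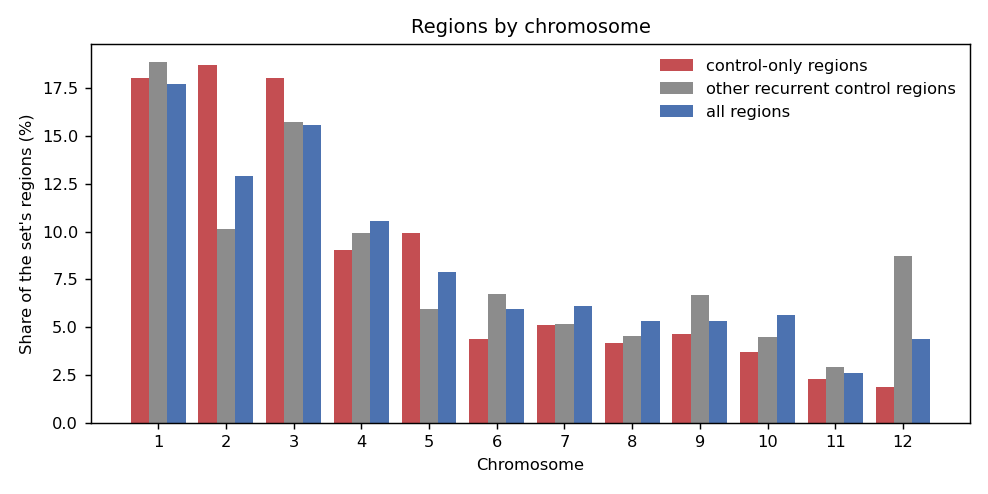
Share of each set (y axis, %) on chromosomes 1 to 12 (x axis) for the 432 control-only regions (red), the 1271 other recurrent control regions (grey) and all 16253 regions (blue). The red bar exceeds both others on chromosome 2 (18.8% against 10.1% and 12.9%) and is the lowest on chromosome 12 (1.85% against 8.73% and 4.37%).

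Of the 432 control-only regions, 253 (58.6%) lay in the outer 20% at either end of a chromosome. The share was 51.8% of the other recurrent control regions, 54.9% of the 9675 regions in 1 or 2 control lists and no desiccation list, and 51.7% of all regions.

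Control-only regions were more widely spaced than the other recurrent control regions, of which there are more. The median gap between neighbours was 289998 bp, against 93085 bp, and 11.7% of gaps were at most 10000 bp, against 28.1%. Of the 432, 138 (31.9%) had another recurrent control region within 10000 bp that was called under desiccation. This share was not measured for other sets of regions, so it describes the control-only regions alone. The 1 Mb bin with most control-only regions was 37 to 38 Mb of chromosome 1, with 11 of 22 recurrent control regions. It was followed by 28 to 29 Mb of chromosome 2 with 10 of 20 and 33 to 34 Mb of chromosome 2 with 10 of 17.

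Runs of 3 control-only regions with gaps of at most 10000 bp occurred 8 times. These runs and the bins named here were chosen with their values known. The shortest run, Chr9:20398216–20400544, held 3 control-only regions and no other region within 2329 bp, at mean percentiles of 42.5 to 53.2. Chr8:546157–551578 spanned 5422 bp with no desiccation summit within 75227 bp of any of its 3 control-only regions. At Chr2:33448172–33453004 the nearest desiccation summits were 1035 to 2041 bp away. The run at Chr1:8073069–8084907 held the highest-ranking members, with mean percentiles of 59.6 to 77.7, and 2 of its 14 regions had a desiccation summit.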

How the data were processed

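OsHOX24 ChIP-seq libraries of H49 and WT seedlings, desiccated or in water, were used, with 2 replicates per group. Per the series' design text, the authors cleaned the reads with NGS QC Toolkit, aligned them by Bowtie2 to MSU version 7 of the genome and called peaks in MACS2. The submitters' processing notes give MACS2 as version 2.1.1.20160309. Neither the use of inputs as background nor the place of a Bedops step that the design text names is given in the sources used. Each library has its own list of 1 bp summits, without widths or read counts. The deposited value is read as a −log10 p-value, from the format of MACS2 summit lists, a lowest value near 3 and the peak names, in which a tag is read as a threshold of 0.001. In 2 lines the peak name was damaged, and the lines were kept.

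Of 29740 summits, 29684 lay on chromosomes 1 to 12. Positions are 1-based; a region runs from 100 bp before its first to 100 bp after its last summit. A region's percentile is that of its highest summit in a list. With read numbers unknown, intervals and detection limits are left out. Replicates may be technical, as the labels name no separate plants. The code for the merging and the rule was run on simulated lists of well-separated sites, whose summits always lay within the merge distance. Recovery was therefore fixed by construction, and closely spaced or widely spread summits were not covered. Analyses used Python 3.11.15, pandas 2.3.3 and NumPy 2.4.6. Tests over sequences and genes named in the plan were not made, since no genome of this build was used.

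The set and the lists compared were chosen with earlier results of these data known. Regions named are the 10 highest by mean control percentile among those in all 4 control lists, the 5 highest among those in exactly 3, the 5 lowest, the 5 closest to and the 5 farthest from a desiccation summit, and the 5 highest in all 4 control lists and 1 desiccation list. Alternatives were other merge distances, stronger or equally many summits, all 4 control lists, each library left out, and a larger distance to desiccation summits.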

Additional observations from a re-analysis of the deposited data

Results flagged for a closer look

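Among 49 sets of 4 control or 4 desiccation libraries, 5 had 1 library far from the other 3. Chance alone gives about 1 such set in 20 only where sets are independent and their values normally distributed. The sets here share libraries, and many are of regions named for their control ranks, so the 5 are a description. WT desiccation replicate 2 had a median −log10 p of 20.1, against 6.10 to 7.71 for the other desiccation lists. Chr1:28946695–28946994 reached −log10 p of 23.5 in WT control replicate 1, against 8.14 to 10.6 in the other control libraries. Chr3:5988854–5989141 stood at percentile 84.4 in H49 control replicate 1, against 68.0 to 68.5 in the others. Chr5:29070575–29070907 stood at percentile 30.7 in that library, against 4.10 to 6.29. Chr12:455721–455983, which is outside the rule by 1 desiccation list, had −log10 p of 69.9 in H49 control replicate 2, against 9.31 to 16.02.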

How the results depend on the processing

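With each list cut to its 2172 strongest summits the rule found 121 control-only regions and 109 of the opposite kind, 12.97% of recurrent control regions were control-only, 28.1% and 66.9% of them had a desiccation summit within 1000 and 10000 bp, 13.2% lay on chromosome 2 and 14.05% were in all 4 control lists. With the upper 50% of each list the same rule gave 217 and 27 regions, 13.4% and 42.4% within 1000 and 10000 bp, 12.4% on chromosome 2 and 0.461% on chromosome 12, and control-only regions ranked lower than the other recurrent control regions by a mean of −34.4 percentile points, against −27.7. Requiring all 4 control or all 4 desiccation lists gave 83 and 4 regions, 10.6% of recurrent control regions, 72.3% within 10000 bp and 0% on chromosome 12. Merging over 100 bp gave 22.9% of recurrent control regions as control-only, and 23.6% of the control-only regions within 1000 bp. Merging over 500 bp gave 8.57% within 1000 bp, and values of at least 5 gave 53.4% within 10000 bp. Excluding regions with a desiccation summit within 500 bp, chosen after seeing the data, left 11.3% within 1000 bp. Excluding those within 1000 bp, also chosen then, left 0%, with 20.8% of recurrent control regions and 52.3% within 10000 bp. Without single libraries, control-only regions numbered 111 to 583 and the opposite kind 5 to 141, partly by construction, since 3 lists of 3 are asked for when a list of that treatment is left out. The share of recurrent control regions was then 12.6% to 34.7%, and those with a desiccation summit within 1000 and 10000 bp 13.9% to 32.4% and 55.1% to 73.9%. Control-only regions ranked below the other recurrent control regions, averaged over lists, in all 17 alternatives. These alternatives reuse the same summit lists, and the values ranked are those from which the calls were made. Averaging over the summits of a region left the set unchanged, and the distance exclusions only removed regions from it. The 17 are therefore descriptions and not independent support for the lower rank. The causes of the changes between alternatives were not tested. No paired analysis was possible because no result comes from a test. Sequence motifs were not run. Depth is unknown and limits what a missing summit can show.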
